A study of Mus musculus with 16 samples.

Results

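The transcripts of 10 neuropeptide genes of the hypothalamus, Avp, Oxt, Hcrt, Pmch, Agrp, Cartpt, Trh, Gal, Crh and Ghrh, were followed in the brains of male mice with and without Slc5a8, a sodium-coupled transporter of lactate, pyruvate and ketone bodies. They were chosen by name, as every non-control probe whose gene name on the array was one of the 10, and this gave 11 of the 55681 distinct probes. RNA was taken from whole brain of C57BL/6J mice, and 1 Cy3-labelled sample was hybridised per Agilent whole-genome array. The 4 groups were wild type at 4 months (young wild type), Slc5a8-deficient at 4 months (young deficient), wild type at 18 months (old wild type) and Slc5a8-deficient at 18 months (old deficient), with 4 arrays each. All the mice were male and no treatment is given in the labels. The labels give neither the construct nor the deleted part of Slc5a8, nor the breeding of the controls. They describe the 4 samples per condition as biological replicates without naming litters or cages, so a p-value reflects the scatter of these samples alone.

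Hypothalamic neuropeptides are made as larger precursors in small groups of neurons, cut and modified in secretory granules, and released either into the blood or onto other neurons. Vasopressin (Avp) and oxytocin (Oxt) come from the large neurons of the paraventricular and supraoptic nuclei, whose axons reach the posterior pituitary, and vasopressin also from the suprachiasmatic nucleus. Orexin (Hcrt) and melanin-concentrating hormone (Pmch) mark separate neurons of the lateral hypothalamus that act on waking, sleep and feeding. Agouti-related peptide (Agrp) is a product of hunger-promoting neurons of the arcuate nucleus, which also holds the growth hormone-releasing hormone (Ghrh) neurons. Thyrotropin-releasing hormone (Trh), corticotropin-releasing hormone (Crh), galanin (Gal) and the CART peptide (Cartpt) are made in the hypothalamus and in other regions too, Crh and Cartpt among them in the cerebral cortex.

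In 3 of the genes the probe lies in coding sequence, and its letters are shown because they define what the signal measures. The Avp probe, chr2:130406552-130406817 on the minus strand of NCBI37/mm9, has 60 bases placed over 266 bases of genome and so crosses an exon junction, in the part of the gene that encodes neurophysin. The Cartpt probe, chr13:100668967-100669956 on the minus strand, has its 60 bases over 990 and also crosses a junction. The Gal probe, chr19:3411143-3411202 on the minus strand, lies within 1 exon.
Avp: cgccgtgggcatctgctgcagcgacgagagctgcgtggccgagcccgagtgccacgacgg
Cartpt: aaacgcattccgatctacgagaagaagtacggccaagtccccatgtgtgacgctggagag
Gal: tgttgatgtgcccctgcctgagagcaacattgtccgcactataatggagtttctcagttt

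The Oxt probe is at chr2:130402665-130402724 on the plus strand, 3827 bases from the Avp probe, since both genes lie side by side and are read towards each other. The remaining probes are at chr11:100623007-100623066 for Hcrt, chr10:87555031-87555090 for Pmch, chr8:108090600-108090659 for Agrp and chr6:92192061-92192120 for Trh. The Crh probe is at chr3:19593482-19593541 and the Ghrh probe at chr2:157155249-157155308. The Pmch probe lies 0.84 Mb from the Slc5a8 probe (chr10:88391888-88391947). An added probe for Hcrt, made to an Ensembl transcript model, was well above background on 1 of 16 arrays, had log2 levels from -8.26 to -5.27, and did not pass the filter on dim probes. The other 10 probes, 1 per gene, were well above background on all 16 arrays, so every gene was measured and none was carried by its brightest group alone.

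The promoters of 4 genes are shown because these genes varied most between arrays of a group. They are set in pairs, Avp with Oxt and Hcrt with Pmch, but the levels did not vary together in these pairs alone. Across the arrays Hcrt with Trh (Pearson r = 0.76) and Cartpt with Ghrh (r = 0.73) were about as close as Avp with Oxt (r = 0.74). Each promoter is the 250 bases before the start of transcription in RefSeq, on GRCm38.p6, read in the direction of the gene. Capitals mark motif matches on either strand. The motifs were the E-box CACGTG, an element that clock factors bind, the site AGGTCA, which many nuclear receptors recognise, and the TATA box, spelled TATAAA here.
Avp, chr2:130582589-130582838, minus strand: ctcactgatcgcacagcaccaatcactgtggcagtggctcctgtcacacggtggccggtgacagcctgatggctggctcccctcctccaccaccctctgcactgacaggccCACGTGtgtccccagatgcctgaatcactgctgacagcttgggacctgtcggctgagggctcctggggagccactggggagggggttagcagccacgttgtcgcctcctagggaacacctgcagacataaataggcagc
Oxt, chr2:130575919-130576168, plus strand: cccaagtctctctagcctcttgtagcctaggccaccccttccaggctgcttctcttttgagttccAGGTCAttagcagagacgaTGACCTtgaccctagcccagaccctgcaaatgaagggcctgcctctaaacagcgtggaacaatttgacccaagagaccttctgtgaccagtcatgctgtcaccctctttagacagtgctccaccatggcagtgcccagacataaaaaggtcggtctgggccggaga
Hcrt, chr11:100762932-100763181, minus strand: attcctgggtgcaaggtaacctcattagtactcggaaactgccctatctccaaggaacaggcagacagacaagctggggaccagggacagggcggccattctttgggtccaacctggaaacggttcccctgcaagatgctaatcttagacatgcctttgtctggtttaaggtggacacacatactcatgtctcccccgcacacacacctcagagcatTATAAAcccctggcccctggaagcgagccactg
Pmch, chr10:88090822-88091071, plus strand: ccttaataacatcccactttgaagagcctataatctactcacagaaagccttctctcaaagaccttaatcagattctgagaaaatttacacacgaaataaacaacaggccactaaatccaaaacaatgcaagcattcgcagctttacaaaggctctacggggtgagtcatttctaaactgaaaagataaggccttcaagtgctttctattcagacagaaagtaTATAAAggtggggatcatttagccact

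Counted from the start of transcription, the E-box of Avp begins at -139, the pair of receptor sites of Oxt at -185 and -166 in opposite directions, and the TATA boxes of Hcrt and Pmch at -33 and -27. Avp and Oxt shared none of the motifs searched, and Hcrt and Pmch shared the TATA box. Among 32851 RefSeq promoters of the same length, CACGTG occurred in 6.02%, AGGTCA in 14% and TATAAA in 12.4%. A motif for the cAMP response element (TGACGTCA, in 1.55% of promoters) was also searched and occurred in 1 of the genes, Cartpt, at -112. AGGTCA was also found before Trh and Ghrh, and TATAAA before 1 of the 2 starts of Ghrh. RefSeq promoters were matched for 8 of the 10 genes, not for Agrp and Crh. A match describes the letters only.

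All levels below are log2 of the background-subtracted signal minus the array's 75th percentile, so that 0 is the 75th percentile of the array, and they compare arrays for 1 gene, never 1 gene with another. On each array 58.4% to 66.1% of the spots were well above background, and that percentile ran from 626 to 1348 signal units. All deficient arrays lay on 1 slide and all wild-type arrays on the other, and a slide effect cannot be told apart from one of genotype. Within a slide the ages lay in different rows, in opposite order on both slides, so row cannot be told apart from a genotype or age difference taken at a single age or genotype, nor from their interaction. The age difference averaged over genotypes is the comparison that slide and row leave balanced. The array of young deficient replicate 1 stood apart from all others on the first principal component of all probes (117 against -32.1 to 31.0 for the others), which held 28.7% of the variance. The Slc5a8 probe stayed near background on all 16 arrays and checks nothing about the labels.

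None of the 10 genes passed the test in any comparison. Differences are from limma on all 16 arrays, given ± SE, with Benjamini-Hochberg adjusted p over 33075 probes and a threshold of 0.05. Between deficient and wild type at 4 months, 0 of 10 genes were called, against 1.45% of all probes, with 4 higher and 6 lower in the deficient mice and a median difference of -0.17. At 18 months 0 of 10 were called, against 1.36% of all probes, with 5 higher and 5 lower and a median of 0.06. With age, 0 of 10 were called in wild type, against 0.369% of probes (2 higher, 8 lower at 18 months, median -0.37), and 0 of 10 in deficient mice, against 2.1% (4 higher, 6 lower, median -0.06). Genotype averaged over ages gave 0 of 10 against 3.13%, age averaged over genotypes 0 of 10 against 1.46%, and the interaction of both 0 of 10 against 0.236%. With shares this small, a count of 0 among 10 genes is near the background in each comparison, where the median difference of all probes stayed within 0.022 of 0. At an unadjusted p under 0.05 (limma) the 7 comparisons held 0, 1, 1, 1, 0, 1 and 2 of the 10 genes in the order given. Of all probes, 17.2%, 10%, 6.28%, 20.4%, 15.1%, 14.6% and 10.8% were under it in the same order.

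**Figure D1:**
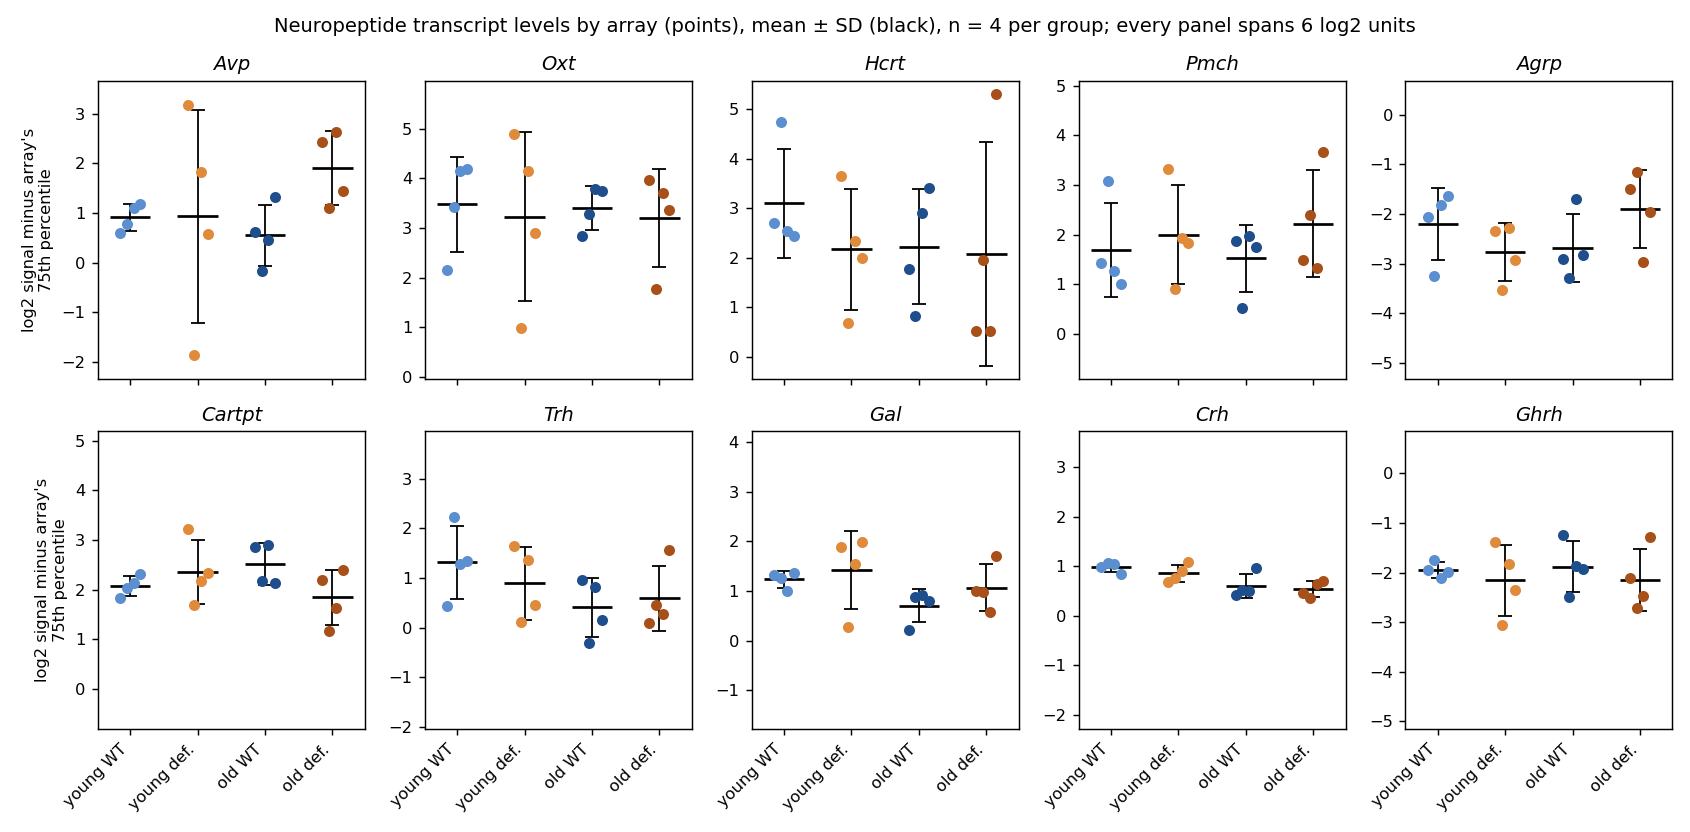
Level of each of the 10 genes on the 16 arrays (log2 signal minus the array's 75th percentile, vertical axis), by group (WT, wild type; def., Slc5a8-deficient), with group means and SD in black. Every panel spans the same 6 log2 units, so the height of the scatter can be compared between genes: Hcrt and Avp spread widely within groups, while all 16 arrays of Crh lie between 0.35 and 1.08.

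Of the magnocellular hormones, Avp, the precursor of the antidiuretic hormone, had its highest mean in old deficient brains and its widest scatter in young deficient ones. In young wild type the 4 arrays were at 0.59, 0.78, 1.10 and 1.18, and in young deficient at 3.19, -1.87, 1.83 and 0.58. In old wild type they were at 0.61, -0.17, 0.46 and 1.33, and in old deficient at 2.44, 1.10, 2.63 and 1.44. The young wild-type arrays lay close together, the young deficient arrays enclosed those of every other group, and the lowest old deficient array lay below the highest old wild-type one. The difference between old deficient and old wild type was 1.34 ± 0.75, a 2.54-fold ratio with a 95% interval from 0.835 to 7.73 (limma, adjusted p = 0.627). At 4 months it was 0.02 ± 0.75 (adjusted p = 0.992), but it was 0.95 without young deficient replicate 2 and -0.73 without replicate 1, so its size and sign rested on these arrays. With age, Avp differed by 0.97 ± 0.75 in deficient mice (adjusted p = 0.47) and by 0.04 without young deficient replicate 2. In wild type the age difference was -0.36 ± 0.75 (adjusted p of 1). The group means ran from 0.56 in old wild type through 0.91 and 0.93 in the young groups to 1.9 in old deficient, and no neighbours in that order differed beyond their spread.

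Oxt, the precursor of the hormone of milk ejection and birth, had nearly equal means in the 4 groups. Its levels were 2.15, 3.42, 4.16 and 4.19 in young wild type and 4.89, 0.99, 4.15 and 2.90 in young deficient. In old wild type they were 2.83, 3.28, 3.78 and 3.74, and in old deficient 3.97, 1.78, 3.71 and 3.37. The groups overlapped throughout, and replicate 2 was the lowest array of both deficient groups. Group means lay between 3.21 and 3.48, and the genotype difference was -0.25 ± 0.71 at 4 months (adjusted p = 0.886) and -0.20 ± 0.71 at 18 months (adjusted p = 0.971). The intervals of these ratios, 0.295 to 2.41 and 0.304 to 2.48, leave room for changes of over 2-fold either way. Without young deficient replicate 2 the Oxt difference at 4 months turned to 0.50, and without replicate 1 it was -0.80, in both cases not called.

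Of the lateral hypothalamic peptides, Hcrt, the orexin precursor that keeps wakefulness stable, was the most variable of the 10 genes between arrays of 1 group. Young wild-type levels were 2.70, 4.73, 2.53 and 2.44, and young deficient levels 3.65, 0.69, 2.34 and 1.99. Old wild-type levels were 1.79, 0.82, 2.91 and 3.40, and old deficient levels 0.53, 1.95, 0.52 and 5.31. The old deficient group held both the lowest and the highest arrays of all 16. Its within-group SD of 1.51 was above that of 99.9% of the kept probes, whose median SD was 0.25. The mean was highest in young wild type, at 3.1, and lay between 2.08 and 2.23 in the other groups. The genotype difference at 4 months was -0.93 ± 0.96 (adjusted p = 0.65) and the age difference in wild type -0.87 ± 0.96 (adjusted p of 1). At 18 months the genotype difference was -0.15 ± 0.96 (adjusted p = 0.984). Single arrays set the size of these Hcrt values. Without old deficient replicate 4 the difference at 18 months was -1.23, and without young wild type replicate 2 those at 4 months and with age in wild type were -0.39 and -0.33, none of them called.

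Pmch, the precursor of melanin-concentrating hormone, scattered like Hcrt but over a narrower range. It measured 1.43, 3.09, 1.27 and 1.01 in young wild type and 3.32, 0.90, 1.93 and 1.84 in young deficient. In old wild type it measured 1.87, 0.53, 1.97 and 1.74, and in old deficient 1.5, 2.40, 1.34 and 3.67. Every group held 1 high or low array away from its median, and the groups overlapped fully. Group means ran from 1.53 in old wild type through 1.70 in young wild type and 2.0 in young deficient to 2.23 in old deficient, with no neighbours apart beyond their spread. Pmch was 0.30 ± 0.59 higher in deficient than wild-type mice at 4 months (adjusted p = 0.829) and 0.70 ± 0.59 higher at 18 months (adjusted p = 0.826), and neither difference was called. Without young deficient replicate 1 the 4-month difference of Pmch was -0.14, and without old deficient replicate 4 the 18-month difference was 0.22. Its age differences were -0.17 ± 0.59 in wild type and 0.23 ± 0.59 in deficient mice.

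Of the arcuate feeding peptides, Agrp, the antagonist of melanocortin receptors, had genotype differences of opposite sign at the 2 ages. Its levels were -2.07, -3.26, -1.82 and -1.64 in young wild type and -2.34, -3.54, -2.28 and -2.94 in young deficient. They were -2.92, -3.3, -1.71 and -2.83 in old wild type and -1.5, -1.15, -2.97 and -1.97 in old deficient. In the old groups 3 of 4 deficient arrays lay above 3 of 4 wild-type arrays, and 1 array of each group crossed over. Agrp was -0.58 ± 0.45 in deficient against wild type at 4 months (adjusted p = 0.533) and 0.79 ± 0.45 at 18 months (adjusted p = 0.636). With age it differed by -0.49 ± 0.45 in wild type (adjusted p of 1) and by 0.88 ± 0.45 in deficient mice (adjusted p = 0.281). Without young deficient replicate 2 the 4-month difference of Agrp was -0.32. The interaction was 1.37 ± 0.64 with an interval from 0.01 to 2.72 (unadjusted p = 0.0483, adjusted p = 0.46, limma), and slide row cannot be told apart from it.

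Cartpt, whose CART peptide restrains feeding and is also made in the cortex, midbrain and other regions, had the opposite order. It measured 1.83, 2.04, 2.13 and 2.32 in young wild type and 3.22, 1.69, 2.18 and 2.34 in young deficient. In old wild type it measured 2.87, 2.18, 2.90 and 2.13, and in old deficient 2.20, 1.17, 1.63 and 2.39. The lowest 2 of the 16 arrays were old deficient and the highest was young deficient replicate 1. Cartpt differed between deficient and wild type by 0.28 ± 0.31 at 4 months (adjusted p = 0.682) and by -0.67 ± 0.31 at 18 months (unadjusted p = 0.0492, adjusted p = 0.496). The ratio at 18 months was 0.628 with an interval from 0.395 to 1.0. Its interaction was -0.95 ± 0.44 (unadjusted p = 0.0492, adjusted p = 0.462). At 4 months the difference was -0.01 without young deficient replicate 1.

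Of the releasing hormones, Crh, which drives the pituitary-adrenal stress axis and is also made by cortical and amygdala neurons, had the smallest p of the 10 genes and was lower at 18 months in both genotypes without being called. Young wild-type levels were 0.98, 1.07, 1.04 and 0.85, and young deficient levels 0.68, 0.77, 0.90 and 1.08. Old wild-type levels were 0.43, 0.51, 0.49 and 0.97, and old deficient levels 0.46, 0.35, 0.63 and 0.71. Of the 8 old arrays, 6 lay below every young array, and the other two, old wild type replicate 4 and old deficient replicate 4, lay within the young range of 0.68 to 1.08. Averaged over genotypes the age difference was -0.35 ± 0.09, a ratio of 0.784 with an interval from 0.683 to 0.901 (limma, unadjusted p = 0.00182, adjusted p = 0.0825). It was -0.38 ± 0.13 in wild type (adjusted p = 0.46) and -0.32 ± 0.13 in deficient mice (adjusted p = 0.196), with an interaction of 0.07 ± 0.19. Leaving out old wild type replicate 4 brought the Crh difference to -0.41 and under the threshold (adjusted p = 0.0229), the only such call among the alternatives run, whose adjusted p ranged up to 0.215. The genotype differences of Crh had the narrowest intervals, -0.13 ± 0.13 at 4 months (ratio interval 0.753 to 1.11) and -0.06 ± 0.13 at 18 months (0.79 to 1.16).

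Trh, which drives the release of thyrotropin and is also made widely outside the hypothalamus, had higher means at 4 than at 18 months in both genotypes. It measured 0.43, 2.22, 1.28 and 1.33 in young wild type and 1.65, 0.11, 1.36 and 0.46 in young deficient. In old wild type it measured 0.95, -0.31, 0.82 and 0.16, and in old deficient 0.10, 0.45, 0.27 and 1.56. Young and old arrays overlapped in both genotypes. The age difference of Trh was -0.91 ± 0.44 in wild type (unadjusted p = 0.0548, adjusted p = 0.811), -0.30 ± 0.44 in deficient mice (adjusted p = 0.708) and -0.60 ± 0.31 on average (adjusted p = 0.388). In deficient mice it was -0.05 without young deficient replicate 1.

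Ghrh, which drives the release of growth hormone, had means between -2.16 and -1.88. Its levels were -1.95, -1.74, -2.12 and -1.98 in young wild type and -1.40, -3.06, -1.82 and -2.36 in young deficient. They were -1.25, -2.50, -1.86 and -1.92 in old wild type and -2.12, -2.72, -2.48 and -1.28 in old deficient. The young wild-type arrays lay within the range of each other group. Its largest difference was that between genotypes at 18 months, -0.27 ± 0.35 (adjusted p = 0.91), and with age it differed by 0.07 ± 0.35 in wild type and 0.01 ± 0.35 in deficient mice, the last turning to -0.29 without young deficient replicate 2 and 0.26 without replicate 1.

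Gal, the galanin precursor, a peptide of sleep-promoting preoptic and many other neurons, had a lower mean in old than in young brains. Its levels were 1.32, 1.26, 1.0 and 1.37 in young wild type and 1.9, 0.27, 1.54 and 1.99 in young deficient. They were 0.22, 0.88, 0.93 and 0.80 in old wild type and 1.0, 0.98, 0.59 and 1.71 in old deficient. In wild type all 4 old arrays lay below all 4 young ones. It was the only such separation among the 10 genes in the 4 comparisons at a single age or genotype. Of all probes, 3.51% were separated with age in wild type and 17.4% with age in deficient mice. Between genotypes 9.4% were separated in young mice and 8.03% in old mice, so a single separation among these genes does not stand out from the background. The age difference of Gal in wild type was -0.53 ± 0.32 (adjusted p = 0.974), and averaged over genotypes it was -0.44 ± 0.23 (unadjusted p = 0.0696, adjusted p = 0.388). Without young deficient replicate 2 the averaged difference of Gal was -0.63 (adjusted p = 0.0729), still not called.

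**Figure D2:**
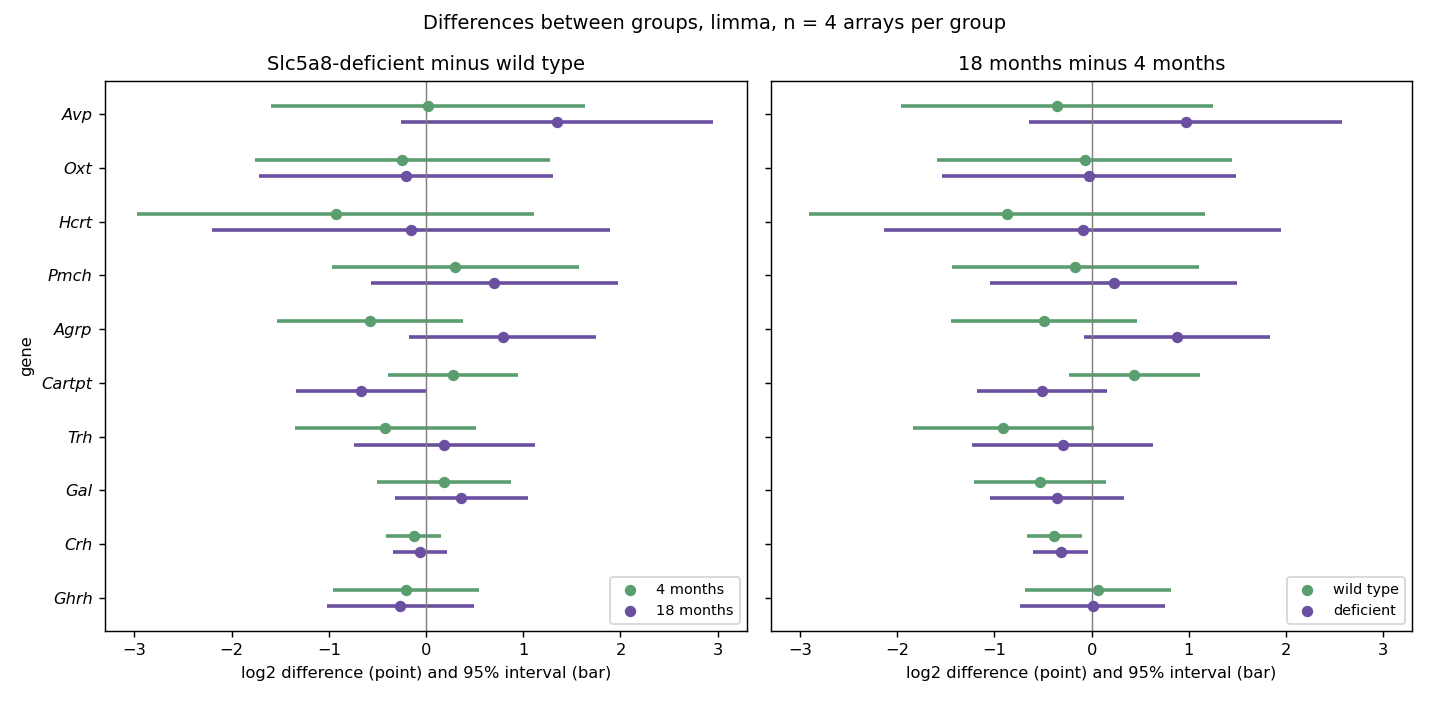
Difference of each gene (points) with its 95% interval (bars) from limma on the log2 scale, between genotypes at 4 and 18 months (left) and between ages in wild-type and deficient mice (right), n = 4 arrays per group. The bars are widest for Hcrt, Avp and Oxt and narrowest for Crh, and no gene passed the adjusted threshold.

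How far these genes varied between brains of 1 group was unlike most of the array. The within-group SD was above that of 90% of the 33075 kept probes (0.475) for 9 of the 10 genes, and ranged from 0.48 for Cartpt to 1.51 for Hcrt. Avp, Oxt, Hcrt and Pmch were at percentiles 99.7, 99.7, 99.9 and 99.3 of it. From the lowest to the highest array Avp spanned 33.2-fold, Hcrt 27.7-fold, Oxt 14.9-fold and Pmch 8.82-fold. Agrp and Trh spanned 5.24-fold and 5.77-fold, Cartpt, Gal and Ghrh 3.41-fold to 4.14-fold. Crh was the exception, with an SD of 0.18, at percentile 27.3, and a span of 1.65-fold. In whole-brain RNA, fewer neurons of a kind and less RNA in each cannot be told apart.

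The scatter ran through several genes on the same arrays. On young deficient replicate 2, 9 of the 10 genes were among their lowest 3 arrays, and their mean was 1.21 below the genes' averages over all arrays (-1.21). On young deficient replicate 1, 8 of 10 were among the highest 3 and the mean was 0.97 above. That array also stood apart from all others over all probes (117 on the first principal component). Old deficient replicate 4 had 5 of 10 among the highest 3 and a mean of 0.78, and on old wild type replicate 2 all 10 genes lay below their averages, with a mean of -0.72. These arrays belong to 3 of the 4 groups, and both extremes to the same one. How many of all probes had their highest or lowest levels on the same arrays was not counted.

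Markers of the hypothalamus that are not peptides were also low and high on the extreme arrays of the young deficient group. Of 19 listed region genes (such as Nkx2-1, Nr5a1 and Gpr101), 15 were measured, and Sim1, Otp, Six6 and Bsx were filtered out as dim. Their mean, centred on each gene's average, was lowest of all 16 arrays on young deficient replicate 2 (-0.73) and highest on young deficient replicate 1 (0.41). It was -0.30 on old wild type replicate 2 and between -0.22 and 0.19 on the others, old deficient replicate 4 (0.18) among them. By group it ranged from 0.05 to 0.09 in young wild type, -0.73 to 0.41 in young deficient, -0.30 to 0.19 in old wild type and -0.19 to 0.18 in old deficient. Fezf1, Hmx2, Hmx3 and Rax were well above background on 12, 13, 15 and 15 of 16 arrays, so this mean includes some levels near background. The median of the 15 genes was -0.44 on young deficient replicate 2 and 0.49 on replicate 1. The mean of the 9 striatum markers varied as widely, from -0.81 on young deficient replicate 4 to 0.57 on old deficient replicate 1, and was -0.46 and 0.46 on young deficient replicates 2 and 1. The part of tissue content in the levels of the peptides was not tested. With young deficient replicates 1 and 2 both left out, Avp differed between genotypes at 4 months by 0.29, Oxt by 0.05, Hcrt by -0.93 and Pmch by 0.19, and no gene was called in any comparison.

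**Figure D3:**
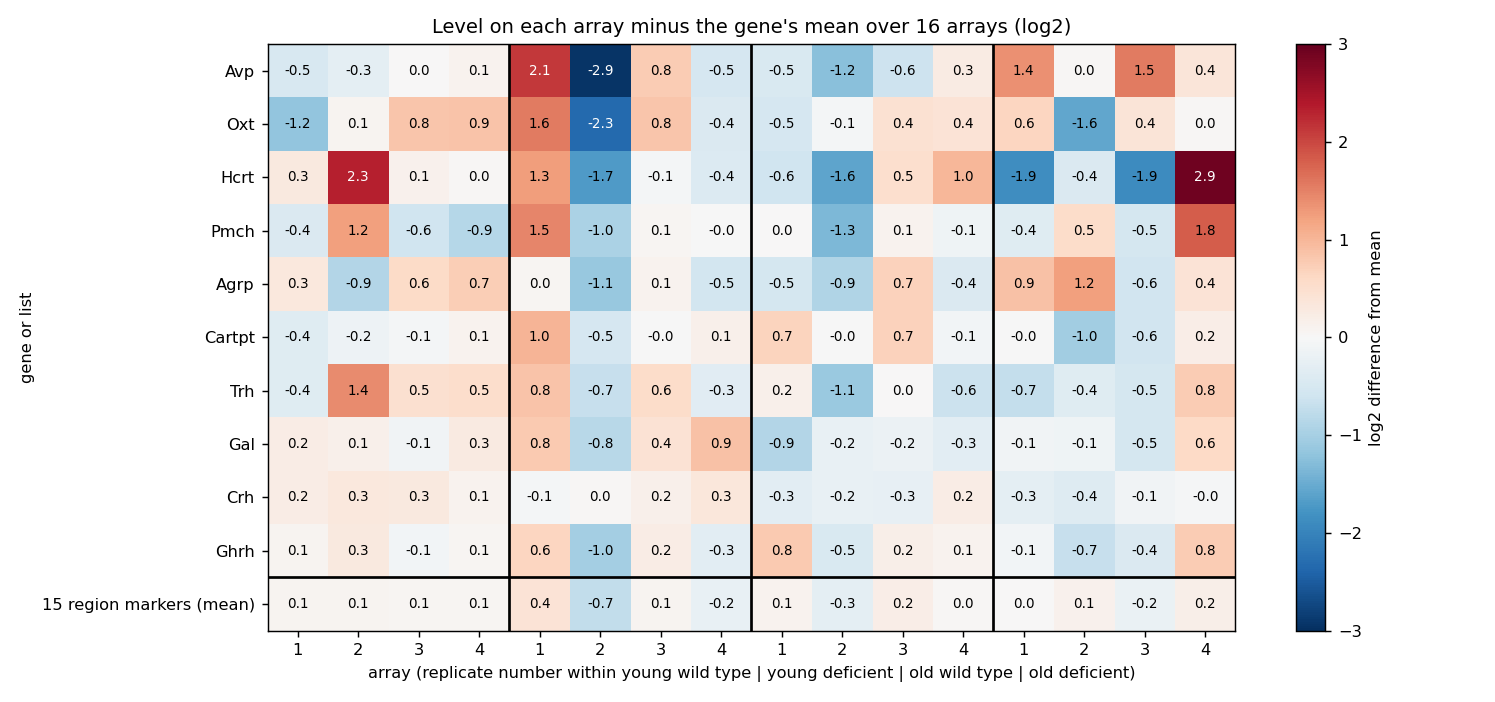
Level of each gene on each array minus the gene's mean over the 16 arrays (log2; colour and printed value), with the mean of 15 hypothalamic region markers in the bottom row. The column of young deficient replicate 1 is mostly above average and that of replicate 2 mostly below, in the peptides and in the markers, while the row of Crh stays within 0.4 of its mean.

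Markers of the pituitary and of other brain regions differed between arrays and groups as well. The 6 measured pituitary markers (Gh, Prl, Cga, Lhb, Pitx1 and Lhx3; Tshb and Fshb were among those filtered out as dim) had centred means from -0.85 to 4.58 in young wild type and -0.02 to 3.39 in young deficient. They were from -2.80 to -1.01 in old wild type and -3.22 to 1.95 in old deficient, and Cga was called lower at 18 months averaged over genotypes (adjusted p = 0.0386). Of 10 listed Hox genes of hindbrain and spinal cord, 9 were measured and Hoxc8 was filtered out. All 9 were called lower at 18 months in the averaged comparison, against 1.46% of all probes. Of them, 5 were called higher in deficient mice averaged over ages, against 3.13% of all probes. A slide effect cannot be told apart from genotype in the second count. The 9 Hox genes were well above background on 4 of 4 young deficient arrays but on at most 1 of 4 old wild-type arrays. Their centred means were -0.61 to 2.11 in young wild type, 1.17 to 3.22 in young deficient, -3.92 to -1.5 in old wild type and -1.18 to 0.80 in old deficient. Of the 5 olfactory bulb markers, Tbx21 (adjusted p = 3.5e-05) and Doc2g (-1.42 ± 0.18, adjusted p = 0.000779) were called lower with age. Cga was well above background on 3 of 8 old arrays and Tbx21 on 2 of 8, against all 8 young ones. These probes and the Hox probes therefore passed the filter through the groups where they are high, and their low levels lie near background. No size is given for their differences. The centred means of the Hox and pituitary lists include such levels near background and do not measure the size of a difference. Of the cortex markers, 1 of the 2 probes of Rorb was called higher at 18 months, in deficient mice (0.53 ± 0.12, adjusted p = 0.0398) and on average (0.38 ± 0.09, adjusted p = 0.0452), and its brighter probe was not (-0.11 ± 0.22 and 0.07 ± 0.15). In the thalamus, striatum, cerebellum and choroid plexus lists no gene was called in any comparison. The lower mean levels of Crh, Gal and Trh at 18 months stand beside these values, and the part of dissection or tissue share in them was not tested.

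Pairs of the genes varied together across the 16 arrays. Of 45 pairs, 41 had a Pearson r above 0 and 12 above 0.5, none was below -0.5, and the median was 0.35. All pairs come from the same 16 libraries with 1 scaling each. How often pairs of other probes varied together to this degree was not counted. The closest pair was Hcrt and Pmch, with r = 0.79 (permutation p = 0.00025, adjusted over the 45 pairs 0.011) and Spearman's rho = 0.61 (permutation p = 0.013, adjusted 0.077). Without the 2 arrays farthest from the median of Hcrt r was 0.59, it was 0.85 on the wild-type slide and 0.94 on the deficient slide, and 0.93 with group means removed. Hcrt and Trh had r = 0.76 (permutation p = 0.00054, adjusted 0.012) and rho = 0.69 (permutation p = 0.0037, adjusted 0.062), with r = 0.63 without the 2 extreme arrays and 0.67 and 0.89 on the slides.

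Avp and Oxt, neighbours on chromosome 2, had r = 0.74 (permutation p = 0.001, adjusted 0.014) and rho = 0.61 (permutation p = 0.014, adjusted 0.077). With group means removed r was 0.87. Without the 2 arrays farthest from the median of Avp r was 0.40. It was 0.46 on the wild-type slide against 0.90 on the deficient slide, so much of the relation rests on few deficient arrays. Cartpt and Ghrh had r = 0.73 (permutation p = 0.0013, adjusted 0.014) and rho = 0.63 (permutation p = 0.0098, adjusted 0.074), with 0.64 without the 2 extreme arrays and 0.51 and 0.79 on the slides. In all, 7 of the 45 pairs had an adjusted p of r under 0.05 and none of rho. Agrp and Crh stood outside the pattern: their r with the other 9 genes ran from -0.27 to 0.42, with adjusted p of at least 0.25.

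**Figure D4:**
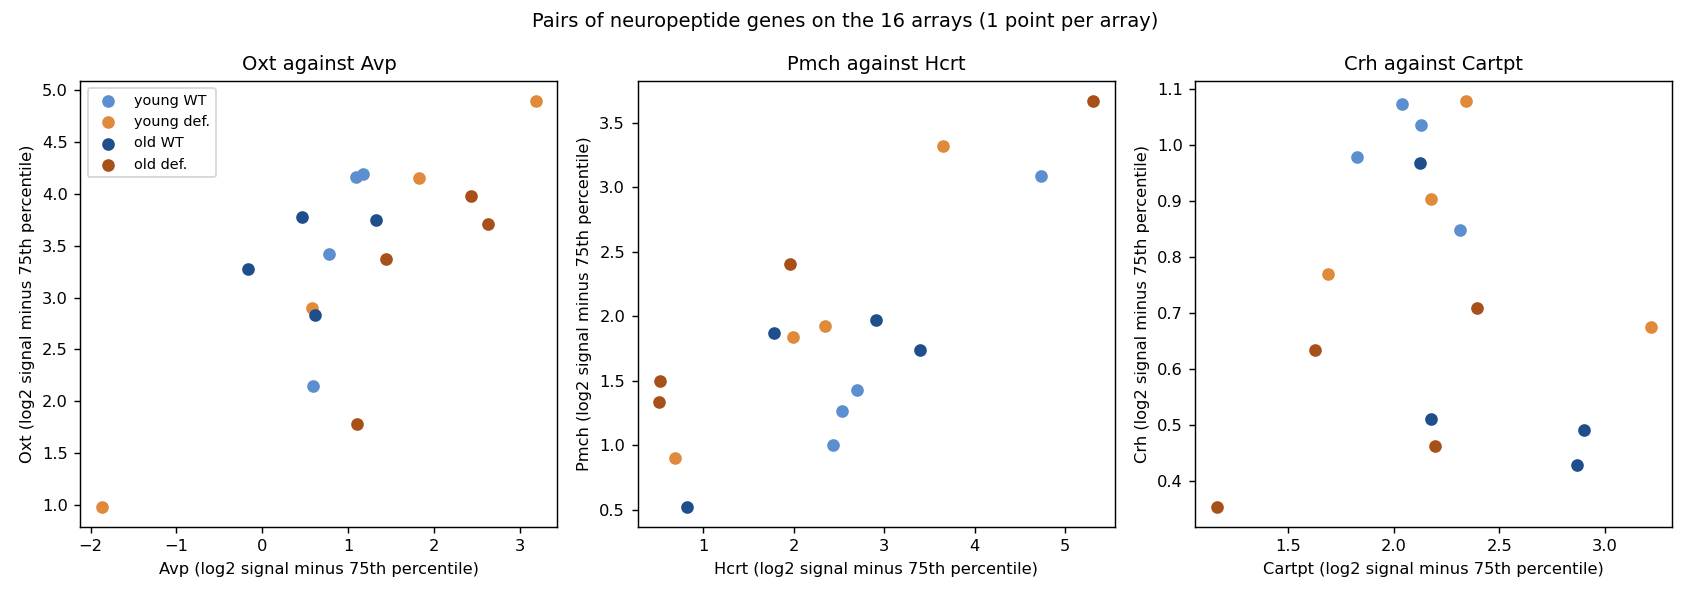
Levels of 3 pairs of genes on the 16 arrays, 1 point per array coloured by group (log2 signal minus the array's 75th percentile on both axes). Oxt follows Avp (r = 0.74) with 1 young deficient array at each end, Pmch follows Hcrt (r = 0.79) with arrays of 3 groups at the upper end, and Crh shows no such relation to Cartpt (r = -0.07), its old arrays lying mostly below its young ones.

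The genes most like each peptide over the 16 arrays were looked up among 14430 genes well above background on every array. Crh had the closest, the potassium channel gene Kcnk1 (r = 0.875) and the splicing factor gene Srsf4 (r = 0.847). Agrp was most like Stk32a (0.825) and Pkd2l2 (0.742), Ghrh like Ecel1 (0.824) and Tmem138 (0.743), Cartpt like Ltbp2 (0.808) and Gpr20 (0.768), and Hcrt like Pgr15l (0.799) and Tmem138 (0.677). Trh was most like Fndc9 (0.771) and Tmem138 (0.718), Oxt like Emilin2 (0.764) and Pnp2 (0.716), and Avp like Cited1 (0.758) and Zkscan7 (0.755). Gal was most like Smim8 (0.757) and Col9a2 (0.747), and Pmch like Sytl4 (0.755) and Hes2 (0.713). Tmem138 was among the 2 closest genes of 3 peptides. These are the highest of very many correlations on the same libraries and are given as a description.

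Receptors of the peptides were called in no comparison. Of 17 listed, 11 were measured (Avpr1a, Oxtr, Hcrtr1, Mchr1, Mc3r, Mc4r, Trhr, Trhr2, Galr1, Crhr1 and Crhr2). Their median difference lay between -0.15 and 0.09 over the 7 comparisons. By the brightest probe of each gene, the smallest unadjusted p was that of the oxytocin receptor Oxtr. It differed by -0.44 ± 0.19 in deficient against wild type at 4 months (unadjusted p = 0.0354, adjusted p = 0.252, limma). Crhr1 had 2 probes, and the dimmer one had an adjusted p of 0.258 for age averaged over genotypes (limma). Its brighter probe differed by -0.27 ± 0.13 there (adjusted p = 0.357). The genes that process peptides or build secretory granules were all 16 measured and 0 were called in any comparison. Averaged over ages, 13 of 16 were higher in deficient mice, with a median difference of 0.08 against 0.022 for all probes. A slide effect cannot be told apart from genotype there. By the brightest probe of each gene, the smallest p among the 16 genes was that of Ptprn2, a granule membrane protein. It differed by 0.42 ± 0.13 between ages in wild type (limma, unadjusted p = 0.00527, adjusted p = 0.337). The lowest adjusted p among its 3 probes was 0.201 in this comparison and 0.105 for age averaged over genotypes. Scg3, a granin of the secretory granule, followed with -0.23 ± 0.09 between ages in deficient mice (unadjusted p = 0.0212, adjusted p = 0.172). Of the 6 peptide binding or degrading proteins none was called. Crhbp, which binds CRH in brain, differed by -0.29 ± 0.12 between genotypes averaged over ages (unadjusted p = 0.022, adjusted p = 0.22) and by 0.27 ± 0.12 between ages (adjusted p = 0.298), the second opposite in sign to Crh. Ece2, an endothelin-converting enzyme that also cuts other peptides, differed by -0.39 ± 0.14 between ages (unadjusted p = 0.0138, adjusted p = 0.206).

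Of 22 other hypothalamic peptide genes, 19 were measured and 2 were called, each in 1 averaged comparison. Of all probes, 3.13% were called for genotype averaged over ages and 1.46% for age averaged over genotypes. The median difference of the 19 genes lay between -0.13 and 0.04 over the 7 comparisons. Prok2, the precursor of a suprachiasmatic output peptide, was lower in deficient mice by 0.84 on the log2 scale averaged over ages (-0.84 ± 0.20, limma, adjusted p = 0.0323). Its group means were -3.54 ± 0.62 (SD, n = 4) in young wild type, -4.27 ± 0.50 in young deficient, -3.56 ± 0.30 in old wild type and -4.51 ± 0.16 in old deficient, and every old deficient array lay below every old wild-type one. At single ages the difference of Prok2 was -0.74 ± 0.28 (adjusted p = 0.201) and -0.95 ± 0.28 (adjusted p = 0.149). A slide effect cannot be told apart from genotype in these differences. Prlh, the precursor of prolactin-releasing peptide, which is made in the brainstem and the dorsomedial hypothalamus, was called lower at 18 months averaged over genotypes (limma, adjusted p = 0.0284). It was well above background on 3 of 4 young wild-type, 4 of 4 young deficient, 1 of 4 old wild-type and 2 of 4 old deficient arrays. It thus passed the filter only through the young deficient group, where it is highest. Its old levels lie near background, and no size is given for its difference. The Hox genes, which mark the caudal brainstem and cord, were lower in the same comparison. A link between their levels and that of Prlh was not tested. Of the hypothalamic region markers none was called, and the smallest p was that of Rax, a tanycyte and hypothalamic transcription factor gene, 1.32 ± 0.31 between ages (unadjusted p = 0.000757, adjusted p = 0.051).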

How the data were processed

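Whole-brain RNA of 16 male mice was measured on 1-colour Agilent arrays. Per the labels' protocols isolation was by an RNeasy kit and the label was Cy3. Group, age and replicate number come from the labels, in which the strain and age tags are interchanged. Per the file headers, spot intensities were read by Feature Extraction 10.7.3.1, and the authors' processed intensity is background-subtracted, with no scaling between arrays. The deposited value table is in log2 values. Of tools, limma alone is named in the submitters' processing notes. The table's columns ranked spots as raw median intensity did (Spearman's rho at least 0.99996) and its medians lay between 6.606 and 6.622, so its scale was inferred, and it served as an alternative.

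Of 59305 non-control spots per array, 98 to 182 outliers were left out and 0 were saturated. Log2 of the processed signal was taken, the array's 75th percentile of it was subtracted, and the spots of a probe were then averaged. Probes well above background in every array of 1 or more groups were kept (33075). A 4-group means model was fitted with limma 3.58.1 in R 4.3.3 (12 residual and 2.94 prior degrees of freedom), and p-values were adjusted by Benjamini and Hochberg over all kept probes of a contrast. The number of arrays limits the precision. Correlations used 100000 permutations, and their p-values are two-sided.

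Named genes were all 10 members with every probe, and of each other list the called genes or up to 2 with the smallest p. For each member the 2 genes with the highest correlation over the 16 arrays were named too. Where a listed gene had several kept probes, the brightest gave its values unless another is named. A listed marker gene is not reported here. The members and lists were chosen with earlier results of these data known. Replicate numbers equal slide columns. Same-numbered arrays of different groups correlated between -0.42 and 0.25 in their deviations from group means, so the numbers do not pair the samples. Coordinates of probes are those of the scanner files (NCBI37/mm9); promoters are RefSeq's on GRCm38.p6. Alternatives were background correction, normalization, the value table, filters, 1 probe per gene, the groups in the fit, blocks and left-out arrays.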

Additional observations from a re-analysis of the deposited data

Results flagged for a closer look

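In 40 sets of 4 arrays (10 genes in 4 groups) the highest or lowest array was set against the other 3, and in 3 of them its gap took more than 0.829 of the group's range, where chance gives about 2. Hcrt stood at 4.73 on young wild type replicate 2, against a median of 2.53 on the other 3 arrays (gap 0.886 of the range). Pmch stood at 0.53 on old wild type replicate 2, against 1.87 (0.841 of the range). On this array all 10 peptide genes were below their averages. Crh stood at 0.97 on old wild type replicate 4, against 0.49 (0.848 of the range), and without this array the averaged age difference of Crh passed the threshold.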

How the results depend on the processing

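Across all alternatives the 10 genes gave 1950 differences, of which 1829 kept the sign found with all arrays and 121 changed it, none of them a called value. The number of genes called stayed at 0 in each of the 7 comparisons and under each alternative, except for age averaged over genotypes, where leaving out 1 array at a time gave 0 to 1: without old wild type replicate 4 Crh was called, while 393 of all probes were. For Crh this difference ranged from -0.42 to -0.31 over the alternatives and its adjusted p from 0.0229 to 0.215. Leaving out single arrays moved some differences widely: Hcrt between genotypes at 18 months ranged from -1.23 to 0.37 around -0.15 and with age in deficient mice from -1.17 to 0.43 around -0.09, and Avp between genotypes at 4 months from -0.73 to 0.95 around 0.02.

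With the replicate number as a block (replicate block), 0 of the 10 genes were called in any comparison and the averaged age difference of Crh stayed at -0.35 (adjusted p = 0.0907). Over all probes the replicate block gave 242 calls in place of 479 for genotype at 4 months, 359 in place of 696 for age in deficient mice, 41 in place of 78 for the interaction and 328 in place of 484 for averaged age. Leaving out young deficient replicates 1 and 2, and young deficient and old wild type replicates 2, were chosen after seeing the data and gave 0 calls among the genes. Signal over background did not limit any of the 10 genes. The within-group spread did, and for Avp at 18 months the interval of the genotype ratio reached from 0.835 to 7.73.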
